A study of Mus musculus with 22 samples.

Results

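In adipocyte nuclei of mouse epididymal fat, 668 of 102995 accessible regions on chromosomes 1 to 19 were gained in obesity and still carried a peak after weight loss. These members were chosen by the peak calls of 9 libraries of the short arm. A member carried a peak in 3 of 3 libraries of H (obese), in 0 of 3 libraries of C (control of the same age) and in 2 or more of 3 libraries of HC (after weight loss). Of the 1625 regions with a peak in every H and no C library, 489 carried no peak in any HC library, 468 carried one in 1 HC library, 501 in 2 and 167 in 3. The 489 are called closed again below, and the last 2 classes are the members. The calls of H, C and HC are therefore a description and were not tested. The 10 libraries of the long arm and the 3 libraries of CC_s took no part in the choice.

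The study asked whether fat cells keep a changed chromatin state once obesity has been reversed. It ran ATAC-seq, in which a transposase cuts open chromatin, on 22 libraries from 8 groups, and the peak list of each library is used here. Each library is labelled as a separate biological replicate. All mice, controls included, were AdipoERCre x NuTRAP, with the background written C576BL6 in the labels. An adipocyte-driven, tamoxifen-inducible Cre switches on a reporter that marks nuclei with biotin, and tamoxifen was given before the high-fat diet, so adipocytes formed later may be unmarked. Mice of C (n = 3) stayed on chow until they were 18 weeks old, and those of H (n = 3) ate high-fat diet in the last 12 of these weeks. HC (n = 3) had 12 weeks of high-fat diet followed by 8 weeks of chow, to 26 weeks of age, and CC_s (n = 3) was its chow control. In the long arm, HH (n = 3) had 25 weeks of high-fat diet and was compared with CC_l (n = 2), both at 31 weeks. HHC (n = 3) had 25 weeks of high-fat diet and then 8 weeks of chow, and was compared with CCC (n = 2), both at 39 weeks. The chow of the last 8 weeks differed from the control diet before it and was also given to CC_s and CCC. The arms were 2 series of libraries, so duration of the diet and series cannot be told apart.

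Open chromatin away from promoters is largely made of enhancers, short stretches that bind transcription factors and act on genes at a distance. In fat cells, C/EBP factors, PPARγ and EBF keep the cell's identity, while AP-1 factors respond to stress, growth signals and inflammation. Enhancers can stay accessible after the signal that opened them has gone, and such lasting accessibility is one of the ways in which a cell can keep a record of an earlier state.

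The 6 members with the smallest p-value in the long arm are shown by the 300 bp around the highest signal of the region, read from the mouse genome build GRCm38, because the results below turn on them. Members are numbered by their place in the list of all regions. Capitals mark matches to the AP-1 motif TGANTCA, the C/EBP motif TTGCNNAA and the TEAD motif CATTCCA on either strand.
M92260, intron of D16Ertd472e, chr16:78556688-78556987, plus strand: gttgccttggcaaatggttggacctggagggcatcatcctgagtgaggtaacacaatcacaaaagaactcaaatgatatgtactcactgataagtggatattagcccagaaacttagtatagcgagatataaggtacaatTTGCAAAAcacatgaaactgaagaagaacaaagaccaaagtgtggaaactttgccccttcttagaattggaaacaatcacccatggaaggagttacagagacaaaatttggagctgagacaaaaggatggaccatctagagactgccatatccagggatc
M34694, intron of Tmem132b, chr5:125596355-125596654, plus strand: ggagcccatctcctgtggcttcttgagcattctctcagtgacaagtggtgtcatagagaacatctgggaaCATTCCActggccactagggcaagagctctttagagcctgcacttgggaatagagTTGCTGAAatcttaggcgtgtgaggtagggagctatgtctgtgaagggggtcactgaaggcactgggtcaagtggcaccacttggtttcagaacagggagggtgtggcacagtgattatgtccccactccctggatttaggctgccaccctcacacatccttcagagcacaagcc
M94650, at the start of Ubd, chr17:37193684-37193983, plus strand: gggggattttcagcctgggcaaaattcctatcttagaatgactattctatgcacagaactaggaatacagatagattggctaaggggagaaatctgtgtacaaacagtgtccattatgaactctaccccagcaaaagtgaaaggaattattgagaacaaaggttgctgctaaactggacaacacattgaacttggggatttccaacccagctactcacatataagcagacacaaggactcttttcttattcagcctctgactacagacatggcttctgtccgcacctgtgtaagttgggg
M85013, near Plcxd3, chr15:4595582-4595881, plus strand: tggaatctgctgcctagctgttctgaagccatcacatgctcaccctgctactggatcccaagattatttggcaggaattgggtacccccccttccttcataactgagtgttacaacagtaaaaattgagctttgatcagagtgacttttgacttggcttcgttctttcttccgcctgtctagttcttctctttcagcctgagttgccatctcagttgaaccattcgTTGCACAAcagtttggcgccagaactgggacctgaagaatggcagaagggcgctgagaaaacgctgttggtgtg
M20596, intron of Vav3, chr3:109352381-109352680, plus strand: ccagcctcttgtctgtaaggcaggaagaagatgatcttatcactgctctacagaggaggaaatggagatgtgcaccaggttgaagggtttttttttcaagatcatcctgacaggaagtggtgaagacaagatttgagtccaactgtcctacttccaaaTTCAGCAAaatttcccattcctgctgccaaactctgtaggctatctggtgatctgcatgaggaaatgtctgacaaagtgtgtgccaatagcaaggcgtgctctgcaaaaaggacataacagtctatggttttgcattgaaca
M20588, upstream of Vav3, chr3:109254020-109254319, plus strand: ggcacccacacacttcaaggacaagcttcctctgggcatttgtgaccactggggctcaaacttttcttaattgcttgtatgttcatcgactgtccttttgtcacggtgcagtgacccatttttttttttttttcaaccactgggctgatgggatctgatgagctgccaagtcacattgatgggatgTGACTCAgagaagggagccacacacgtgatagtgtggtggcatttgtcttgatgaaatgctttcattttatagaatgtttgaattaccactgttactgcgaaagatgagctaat
A C/EBP match lay in 4 of the 6 windows, an AP-1 match in 1 and a TEAD match in 1, and the window at Ubd held none of the 3. The window in D16Ertd472e is masked as repeat over 100% of its bases in the reference and the window near Plcxd3 over 61.33%. The other 4 windows are masked over 0 to 18.0%. How reads that map to several places were counted is not given in the sources used here.

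The peaks at members lay in the lower part of each list. In the H libraries the median member stood at the 39.1, 42.9 and 34.5 percentile of total signal among the regions of that library. Its signal was 1.61, 1.77 and 1.69 times the lowest that the list holds, so many members are close to the threshold of the peak caller. Values below are log2 total signal mapped by rank to a common scale on which the 29500 strongest regions of each library keep their order and all weaker or uncalled regions sit at a floor of 14.01. On this scale the members with a peak in 2 of 3 HC libraries had a median of 14.71 in H and 14.29 in HC. The regions just outside the rule, with a peak in 1 HC library, had medians of 14.53 and 14.05.

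The libraries differed in quality. HC 3 and HHC 3 held many weak and narrow peaks, with a median maximum signal of 2.43 and 2.25 times the lowest in the list against 3.67 to 8.92 in the other 20. HC 3 carried a peak at 36.1% of the members, below its share of all regions at 41.8%, so the choice rests mainly on HC 1 (92.5%) and HC 2 (96.4%). The 24 adipocyte promoters of the identity list, Adipoq and Plin1 among them, carried a peak in 95.8 to 100% of cases in every library. Promoters of the 12 endothelial genes carried a peak in 100% of cases in HH 1, Pecam1, Vwf and Emcn included, against 16.7 to 33.3% in H and 8.33% in both CC_l libraries. The share was at most 58.3% in HHC and 50% in the CCC libraries. Of the 15 macrophage promoters, 20 to 46.7% carried a peak in HH, 26.7 to 60% in HHC, 26.7 to 40% in CC_l and 26.7 to 33.3% in CCC, and that of Ptprc carried one in 1 of 22 libraries. Of the 12 stromal promoters, 41.7 to 75% carried one in HH, 66.7 to 83.3% in HHC, 41.7 to 50% in CC_l and 50 to 75% in CCC. For mesothelial genes the shares were 0 to 25% in HH against 33.3% in CC_l, and 25 to 66.7% in HHC against 16.7 to 41.7% in CCC. For lymphocyte genes they were 16.7 to 25% in HH and 25 to 33.3% in HHC, against 25% in CC_l and CCC. In the short arm, mesothelial promoters carried a peak in 25 to 50% of cases in C, 0 to 16.7% in H and 25 to 41.7% in HC, and the ranges of C and H overlapped or met for the macrophage, endothelial, stromal and lymphocyte lists. The part of other cell types in the results was not tested.

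Peaks at the members were more frequent in each obese library of the long arm than in either control. They lay at 59.9%, 88.0% and 95.2% of the members in HH 1, HH 2 and HH 3, and at 22.5% and 33.7% in CC_l 1 and CC_l 2. The lowest HH library thus stood above the highest CC_l library. Over all regions, by contrast, the share with a peak was 30.8 to 33.2% in HH and 31.0 to 32.5% in CC_l. After weight loss in the long arm, members carried a peak in 47.5%, 45.2% and 29.0% of cases in HHC 1, HHC 2 and HHC 3, against 23.1% and 14.1% in CCC 1 and CCC 2. The groups again did not overlap. Over all regions the shares were 29.0%, 28.6% and 40.2% in HHC and 30.2% and 31.9% in CCC, so HHC 3 and both CCC libraries had fewer peaks at the members than over all regions. The mean share was 40.6% in HHC and 81.0% in HH.

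**Figure D1:**
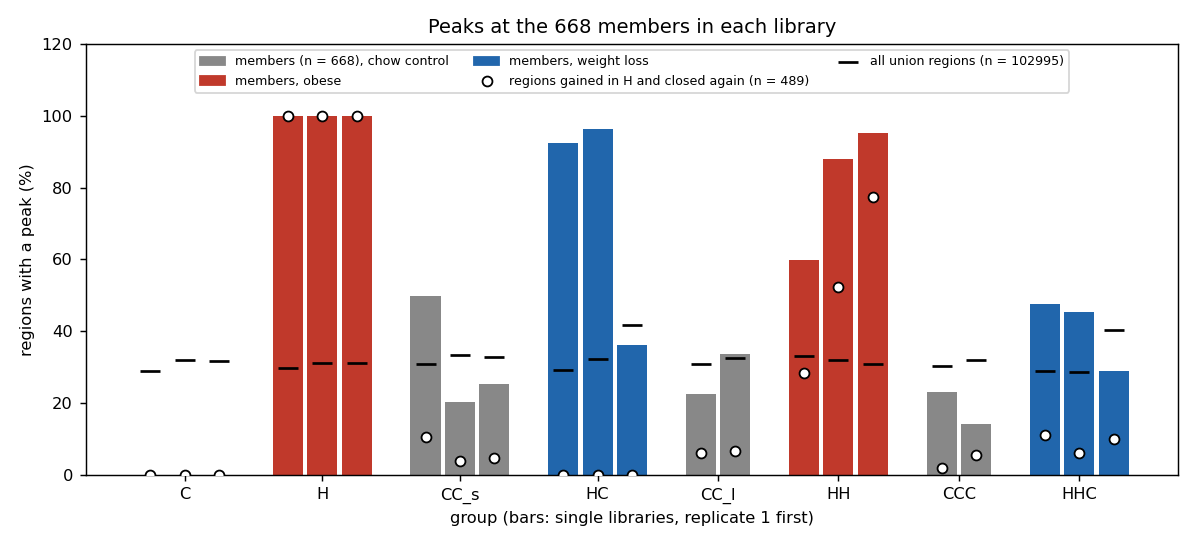
Share of the 668 members that carry a peak in each of the 22 libraries (bars, %), with the share of the closed-again regions (circles) and of all 102995 regions (dashes). The choice sets the bars of C at 0% and of H at 100%, and the bars of HC above the circles at 0%, while in the long arm every HH bar stands above both CC_l bars and every HHC bar above both CCC bars.

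The regions that had closed again after short weight loss also carried more peaks in HH than in CC_l. They carried a peak in 28.2%, 52.4% and 77.5% of cases in the HH libraries and in 5.93% and 6.54% in CC_l. In HHC the shares were 11.04%, 6.13% and 10.0%, and in CCC they were 1.84% and 5.52%. Across the gained regions, the mean share with a peak in HHC went from 9.07% where no HC library had a peak to 19.3%, 35.1% and 57.1% where 1, 2 and 3 had one. The control groups went the same way, from 3.68% to 8.76%, 15.5% and 27.8% in CCC and from 6.24% to 14.7%, 25.8% and 34.7% in CC_l. The 4 classes were set by HC, and no difference between them was tested.

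The chow controls of the short arm, CC_s, also carried peaks at many members. Peaks lay at 49.7%, 20.2% and 25.3% of the members in CC_s 1, CC_s 2 and CC_s 3, although C had none by the rule. The share over all regions was 30.8%, 33.3% and 32.9% in the same libraries, so CC_s 1 alone was above it. Of the 668 members, 268 carried no peak in CC_s, 231 in 1 library, 102 in 2 and 67 in 3. CC_s mice were older than C mice and ate another chow in their last 8 weeks, as did HC, and the effects of age and chow cannot be told apart. Among the 268 members without a CC_s peak, the mean share with a peak was 79.5% in HH, 11.9% in CC_l, 33.7% in HHC and 8.02% in CCC. Among the 67 with a peak in every CC_s library it was 91.04% in HH, 65.7% in CC_l, 58.2% in HHC and 47.8% in CCC. The level in the controls thus differed more between these members than the level in HH.

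Read region by region, 201 members (30.1%) carried a peak in 3 of 3 HH and 0 of 2 CC_l libraries, against 0.991% of all regions. The reverse pattern was seen at 1 member, against 1.4% of all regions. In the weight loss groups, 33 members (4.94%) carried a peak in 3 of 3 HHC and 0 of 2 CCC libraries, against 0.284% of all regions, and the reverse was seen at 2 members, against 1.31%. Without HH 1, 317 members had the obese pattern, against 2.43% of all regions, and without HHC 3, 93 members had the weight loss pattern, against 0.803%. Members without a peak in any of the 10 control libraries numbered 184 (27.5%), against 76.7% of the closed-again regions and 48.3% of all regions. The rule gives members and closed-again regions no peak in the 3 C libraries. Of the 184, 89 carried a peak in 3 of 3 HH libraries. These are 13.3% of members, against 10.02% of the closed-again regions and 0.359% of all regions. In 29 of those, 2 or more HHC libraries also carried one (4.34%, against 1.02% and 0.0796%).

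In the long arm as a whole, 10 members were called higher after high-fat diet and none lower. The comparison set the mean of HH and HHC against the mean of CC_l and CCC in limma, over the 30485 regions above the floor in at least 4 of the 10 libraries, of which 405 were members. The call needed a Benjamini-Hochberg adjusted p under 0.05 and a log2 difference above 1. The 10 members are 1.5% of 668, against 0.151% of all regions tested called higher and 0.302% called lower. With an unadjusted p under 0.01 and the same size of difference, 41 members were higher and 0 lower, against 0.791% and 1.38% of all regions tested. With an unadjusted p under 0.05, 174 members were higher and 0 lower, against 4.92% and 9.87%. A member that is low in controls passes the filter mainly through its high-fat libraries, so these counts are given of all 668 members and not of the 405. The number of calls depended on the settings and on single libraries. It was 0 without the filter and 0 where a call needed peaks over 50% of a region. With the replicate number as a block in the fit it was 0, and with each library scaled to its median 62. No member was called without CC_l 1, CC_l 2, HH 2, HH 3, CCC 1 or CCC 2, 2 were called without HH 1, 1 without HHC 1, 6 without HHC 2 and 33 without HHC 3. Over all regions the calls higher moved too, from 46 to 0 without CC_l 1, CC_l 2, HH 2, HH 3, CCC 1 or CCC 2. They went to 0 without the filter and to 1 with the 50% rule. Without HH 1, HHC 1 and HHC 2 they were 11, 2 and 34. They rose to 165 without HHC 3 and to 223 with the scaling to the median.

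The member with the smallest p-value was M92260, 14286 bp wide at chr16:78552113-78566398, in the gene D16Ertd472e. It carried a peak in all 12 high-fat libraries and in none of the 10 controls. All 10 control libraries sat at the floor of 14.01. Its signal was 16.16, 16.74 and 16.34 in HH 1 to HH 3 and 16.34, 16.50 and 17.27 in HHC 1 to HHC 3. In the short arm it was 16.19, 16.38 and 15.24 in H and 15.96, 15.79 and 14.01 in HC. The long-arm difference was 2.55 ± 0.27 (log2, SE, limma adjusted p = 0.0185). Its size against controls at the floor depends on where the floor lies. Controls set to the floor add no spread to the fit, so the SE and p-value do not measure how far controls vary. The same holds for every member below whose controls sit at the floor. HHC was no lower than HH here, with differences of 2.70 ± 0.45 for HHC against CCC and 2.4 ± 0.32 for HH against CC_l.

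The second was M34694, at chr5:125586664-125605560 in an intron of Tmem132b, which encodes a transmembrane protein. The values were 16.48, 16.68 and 16.92 in HH and 14.01 in both CC_l libraries. After weight loss they were 16.39, 16.34 and 15.53 in HHC, against 14.61 and 14.01 in CCC. Obese and weight loss libraries all stood above every control, and the difference was 2.24 ± 0.27 (SE, limma adjusted p = 0.0271). In H it was among the 6 strongest members, at 16.97, 17.30 and 16.44.

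M94650, at chr17:37192059-37199071, covers the start of Ubd, a ubiquitin-like modifier induced by inflammatory cytokines, and overlaps the olfactory receptor gene Olfr94. Its signal was 16.10, 16.34 and 16.37 in HH and 16.65, 15.41 and 15.47 in HHC, with all 4 long-arm controls at the floor. Of the CCC libraries, 1 carried a peak too weak to pass the floor. The difference was 2.05 ± 0.30 (SE, limma adjusted p = 0.0295). In HC it stood at 15.40, 15.23 and 14.01, with the 3 CC_s libraries at the floor.

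M20596 and M20588 lie in the same stretch of chromosome 3, in and upstream of Vav3, a guanine nucleotide exchange factor. M20596, at chr3:109350093-109363446, had values of 16.26, 16.76 and 16.25 in HH and 15.18, 15.62 and 16.29 in HHC. Its long-arm controls were 14.01 and 14.04 in CC_l and 14.49 and 14.01 in CCC. M20588, at chr3:109249417-109258301, lay 82352 bp from the nearest transcription start site, that of Vav3, and stood at 16.21, 16.44 and 16.32 in HH and 15.82, 15.72 and 14.81 in HHC. The differences were 1.92 ± 0.29 and 1.82 ± 0.28 (SE, limma adjusted p = 0.0295 for both). High-fat and control libraries of the long arm did not overlap at either region, although M20588 carried peaks too weak to pass the floor in both CC_l libraries.

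M85013, at chr15:4595034-4601251, was linked to Plcxd3, a member of the phospholipase C family, by its distance to the gene, and is not in it. The 4 long-arm controls sat at the floor, HH stood at 15.90, 16.37 and 15.79 and HHC at 15.86, 16.23 and 15.22. Of the CC_l libraries, 1 carried a peak too weak to pass the floor. The difference was 1.89 ± 0.28 (SE, limma adjusted p = 0.0295).

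M32386, in an intron of Tec, a non-receptor tyrosine kinase best known from blood cells, was weaker. Its 10 control libraries in both arms sat at the floor, HH stood at 15.21, 15.48 and 15.12 and HHC at 14.83, 15.13 and 14.78. The difference was 1.08 ± 0.20 (SE, limma adjusted p = 0.0472). M64238, between genes with Dyrk2 as the nearest start, differed by 1.32 ± 0.24 (adjusted p = 0.045), and its window is masked as repeat over 100%. M94820, with Cd2ap as the nearest start and named as the last of the 10, differed by 1.17 ± 0.22 (adjusted p = 0.0488), and HHC 3 was at the floor.

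M9586, at chr2:35430077-35455279, was the widest member at 25203 bp and covers a start site of Ggta1, a galactosyltransferase that makes the alpha-gal sugar. The values were 17.35, 17.11 and 16.91 in HH against 14.01 and 14.94 in CC_l. In HHC they were 17.47, 15.93 and 17.77, against 14.79 and 16.13 in CCC, so these groups overlapped. The difference over the long arm was 2.13 ± 0.40 (SE, limma adjusted p = 0.0493).

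**Figure D2:**
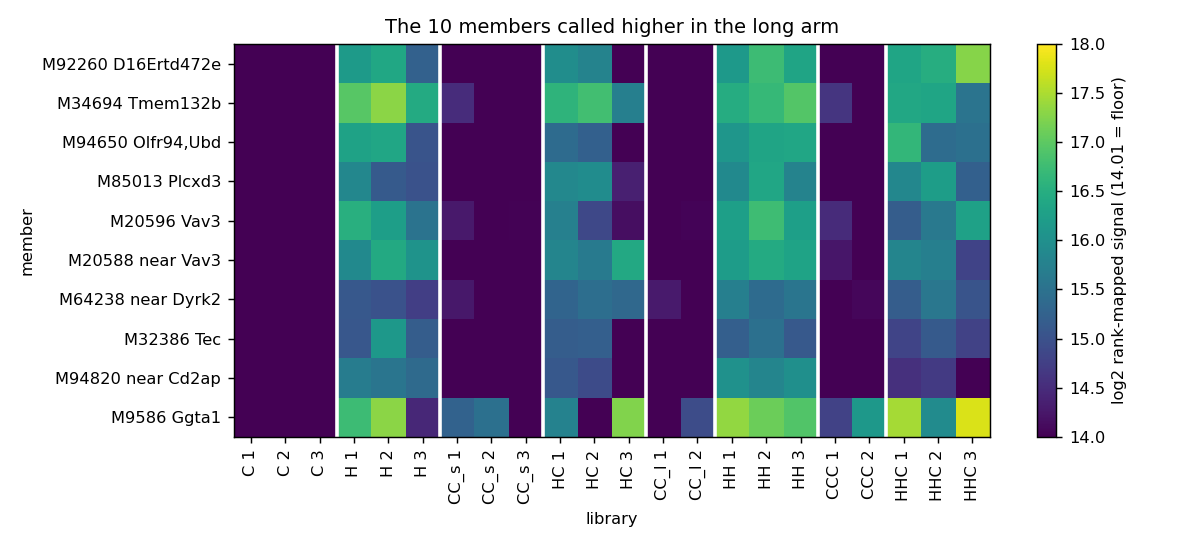
Rank-mapped log2 signal (color, floor 14.01) of the 10 members called higher in the long arm, in each of the 22 libraries. Rows are members with their linked gene or nearest start site, columns are libraries by group. HH is higher than CC_l in every row, though only at 15.12 to 15.48 for M32386. HHC 3 is at the floor for M94820, and CCC 2 reaches 16.13 at Ggta1.

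Within each stage of the long arm, no member passed the adjusted threshold. HH against CC_l gave 0 calls among 32966 regions, with a lowest adjusted p of 0.161 in limma. At an unadjusted p under 0.01 and a log2 difference above 1, 64 members (9.58%) were higher and 0 lower, against 1.34% and 1.36% of all regions tested. With an unadjusted p under 0.05, 164 members were higher and 1 lower, against 5.34% and 8.4%. Without CC_l 1 or CC_l 2 the 64 fell to 17 and 20, and without HH 1 it was 143. The count over all regions moved the same way, from 443 to 154, 194 and 935. Where a call needed peaks over 50% of a region, 1 of 266 members was higher, and with each library scaled to its median 168 were. Over all regions, calls higher and lower at adjusted p were 52 and 19 with that scaling, 40 and 30 with the 4 groups in one fit and 1 and 2 with the 50% rule. Over all 668 members the median difference of HH against CC_l was 0.52 (quartiles 0.25 and 0.91), with 627 members higher and 26 lower in HH. Among the 23813 regions with a peak in every H library the median was 0 and 49.1% were higher.

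After weight loss the shift was smaller. HHC against CCC gave 0 calls among 32119 regions, with a lowest adjusted p of 0.751 in limma. At an unadjusted p under 0.01 and a log2 difference above 1, 1 member, that in D16Ertd472e, was higher and 0 were lower, against 0.118% and 0.582% of all regions tested. With p under 0.05, 15 members were higher and 0 lower, against 1.06% and 5.13%. The share of members at the stricter threshold is 0.15%, near that of all regions. Without HHC 3 there were 25 such members, and the count over all regions also went up, from 38 of 32119 to 213 of 30586. With the replicate number as a block in the fit there were 27 such members, and 263 over all regions. The median difference over the 668 members was 0.08 (quartiles 0 and 0.34), with 419 higher, 61 lower and 188 equal. Among the regions with a peak in every H library the median was -0.03 and 42.1% were higher. The closed-again regions had medians of 0.16 for HH against CC_l and 0 for HHC against CCC.

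Whether the difference itself changed with weight loss was tested as (HHC minus CCC) minus (HH minus CC_l). No member passed, with a lowest limma adjusted p of 0.886 among members and 0.357 among all 30485 regions. At an unadjusted p under 0.01 and a change above 1 in size, 17 members had a smaller difference after weight loss and 0 a larger one, against 0.653% and 0.184% of all regions tested.

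**Figure D3:**
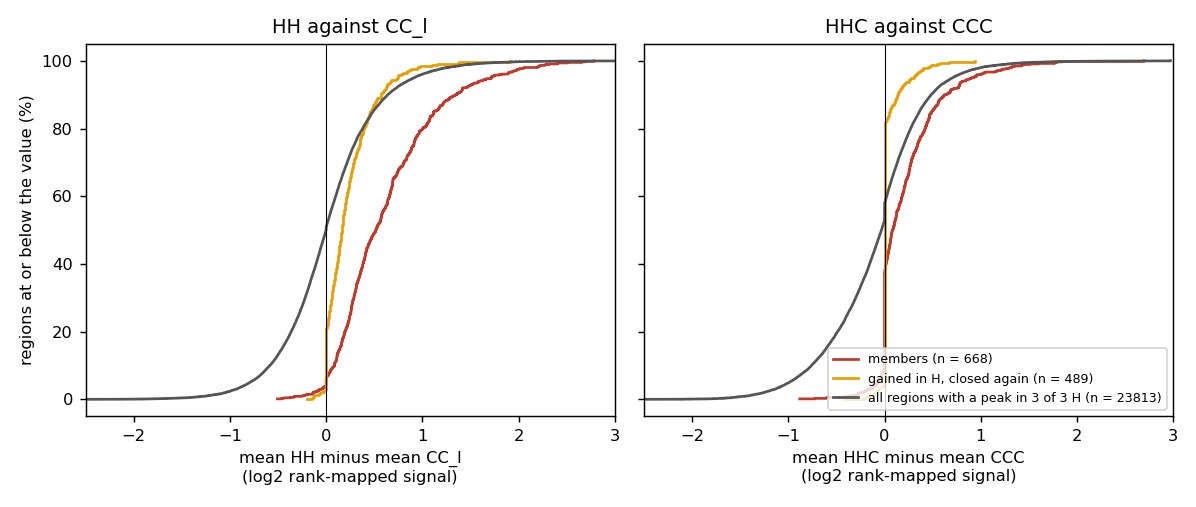
Cumulative share of regions (%) by the difference of mean rank-mapped log2 signal, HH minus CC_l (left) and HHC minus CCC (right), for the 668 members, the 489 closed-again regions and the 23813 regions with a peak in every H library. The members lie to the right of 0 in the obese comparison, with a median of 0.52, and nearer to it after weight loss, with a median of 0.08.

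The strongest members in H kept little of their height in some cases and most of it in others. The strongest was M3844, in an intron of Pam, which encodes the enzyme that amidates peptide hormones, at 17.30, 17.62 and 17.25 in H. It stood at 16.31, 16.59 and 17.46 in HH, with both CC_l libraries at the floor and a weaker peak in 1 of them. In HHC it was 15.44, 15.42 and 14.01, against 14.45 and 14.01 in CCC, so HHC 3 was no higher than the controls. The difference was 2.78 ± 0.40 in HH (SE, limma adjusted p = 0.161) and 0.73 ± 0.56 in HHC (adjusted p = 0.801).

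M101677, in an intron of Dock8, a guanine nucleotide exchange factor for Cdc42 that is needed in immune cells, was 17.08, 16.98 and 16.48 in H and 17.08, 17.52 and 16.89 in HC. HC was thus no lower than H here, and CC_s carried a weaker peak in all 3 libraries. In HHC it was 17.10, 17.13 and 14.47 and in CCC 14.86 and 14.04, so HHC 3 lay between the control values. The long-arm difference was 2.00 ± 0.54 (SE, limma adjusted p = 0.123).

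M972, in an intron of Adgrb3, an adhesion receptor, and M58922, in an intron of Trim71, an RNA-binding ubiquitin ligase of early development, were high in HH and low in HHC. At Trim71 the signal was 15.68, 15.63 and 16.39 in HH and 14.13, 14.97 and 14.01 in HHC, with all 4 long-arm controls at the floor. At Adgrb3 it was 15.56, 15.51 and 16.55 in HH and 14.56, 14.01 and 14.01 in HHC, against 14.56 and 14.96 in CC_l, and CC_s 1 reached 15.92. M61128, in a gene desert of chromosome 10, stood at 15.79, 16.24 and 16.64 in HH and 15.36, 15.47 and 14.01 in HHC. The limma adjusted p of the long-arm difference was 0.323 at Adgrb3, 0.0917 at Trim71 and 0.0705 in the gene desert.

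M27559 lay 2111 bp from a start site of Cyp4a31, one of the Cyp4a genes, whose enzymes hydroxylate the end of fatty acid chains. It was 16.39, 16.54 and 16.69 in HH against 14.05 and 14.01 in CC_l, a difference of 2.51 ± 0.28 (SE, limma adjusted p = 0.161). In HHC 1 it was 16.55, and in HHC 2 and HHC 3 it was at the floor. A second member of that cluster of genes, M27554 near Cyp4a14, was 14.73, 15.39 and 15.56 in HH and 14.13, 14.10 and 14.01 in HHC. It is 1 of the 29 members without a control peak that carried one in 3 of 3 HH and 2 or more HHC libraries. This member was named after its values had been seen.

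The 3 members with the smallest p among those lower in the long arm did not pass a threshold there. M95060 in Foxp4, a forkhead transcription factor, had a difference of -0.19 ± 0.09 (SE, limma adjusted p = 0.376), and it was the 1 member lower in HH against CC_l at an unadjusted p under 0.05. For M44660 in Gabrg3, a GABA receptor subunit, it was -0.25 ± 0.16 (adjusted p = 0.52), and for M31017 near Trmt44 -0.30 ± 0.20 (adjusted p = 0.522).

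A peak in every high-fat library and in no control library was found at 6 members, named for that pattern after the calls were seen. These are 0.0058% of all regions, and since the pattern holds the rule itself, every region that shows it is a member. D16Ertd472e is described above. M21340, at chr3:127768344-127774273 in Alpk1, a kinase that senses bacterial sugars, was 15.31, 15.86 and 16.24 in HH and 15.53, 15.88 and 14.28 in HHC. Its window is masked as repeat over 100%. M63950, in Kcnc2, a potassium channel gene, was 15.90, 16.41 and 16.30 in HH but 14.62, 14.05 and 14.01 in HHC, so the peaks after weight loss were close to the floor. M59156, in Scn10a, a sodium channel gene, was 14.12, 15.08 and 16.17 in HH and 14.44, 14.22 and 14.01 in HHC. The other 2, M39794 with Rybp as the nearest start and M61171 in a gene desert, stayed between 14.06 and 15.26 in HH and HHC. The difference in the long arm had an adjusted p of 0.0838 at Alpk1, 0.0505 at Kcnc2 and 0.119 to 0.382 at Scn10a and the intergenic pair (limma).

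Most members lie far from promoters. The median distance to the nearest transcription start site was 47854 bp (quartiles 16873 and 132069), against 43855 bp for all regions and 13879 bp for all regions with a peak in every H library. Of the 668 members, 49 (7.34%) came within 2000 bp of a start site, against 14.2% of all regions and 38.7% of those with a peak in every H library. The closed-again regions were farther still, with a median of 69500 bp and 2.25% within 2000 bp. The position of highest signal was in an intron for 301 members, in an exon for 29 and between genes for 338. The members were 2199 to 25203 bp wide with a median of 4994.5 bp, against 3044 bp for all regions, 8518 bp for regions with a peak in every H library and 3702 bp for the closed-again regions. Width counts all peaks merged over the 22 libraries, and the median peak at a member was 2951, 2787 and 2328.5 bp wide in H 1 to H 3, narrower than the median peak of those libraries at 3488, 3245 and 2934 bp. The narrowest member was M44406 in Nell1, a secreted growth factor, which stayed between 14.01 and 14.34 in HH.

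**Figure D4:**
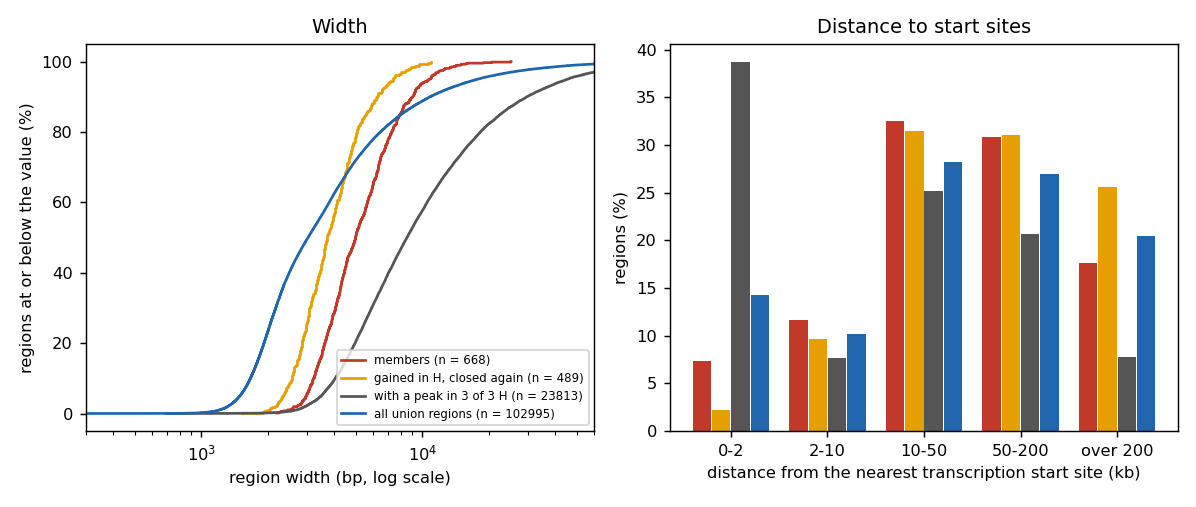
Width (left, cumulative share in %, log axis in bp) and distance to the nearest transcription start site (right, share in % per distance class in kb) of the 668 members, the 489 closed-again regions, the 23813 regions with a peak in every H library and all 102995 regions. Of the members, 7.34% lie within 2 kb of a start site, against 38.7% of regions with a peak in every H library.

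The members touched 382 protein-coding genes, 1.84% of 20780. A member was linked to each gene whose body it overlaps, or otherwise to the closest gene within 20000 bp, which left 233 members without a gene. The linked genes were long, with a median length of 103063 bp against 17625.5 bp for all protein-coding genes. A long gene offers more room for a region to fall in, and the link does not show that a region acts on the gene. Of the linked genes, 46 had 2 or more members and 11 had 3 or more. Dock8 had most, with 6 members among its 18 regions. At those 6, peaks were found in 16 of 18 cases in HH (6 members in 3 libraries), 4 of 12 in CC_l, 14 of 18 in HHC and 8 of 12 in CCC. Ets1, a transcription factor of blood and vessel cells, had 4 members, with peaks in 11 of 12 cases in HH, 2 of 8 in CC_l, 6 of 12 in HHC and 2 of 8 in CCC. Gabrg3 and Grid1, both genes of synaptic receptors, had 4 members each, and here the controls of HH carried peaks about as often as HH. Grid1 had peaks in 7 of 12 cases in HH, 5 of 8 in CC_l, 1 of 12 in HHC and 0 of 8 in CCC. Gabrg3 had them in 8 of 12 cases in HH, 5 of 8 in CC_l, 3 of 12 in HHC and 1 of 8 in CCC. Within 50000 bp of another member lay 132 of the 668 (19.8%), and this share was not measured for other regions. Chromosome 19, which holds Dock8, had 27 members among 1967 regions (1.37%), and the other chromosomes had 0.383% (chromosome 11) to 0.96% (chromosome 10).

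The 12 gene lists examined hold 12 to 46 genes each, and their counts are read against the 1.84% of all protein-coding genes with a member, so that 0 or 1 linked gene in a list does not stand apart. None of the 24 adipocyte identity genes was linked to one, and neither were any of the macrophage, lipid-associated macrophage, mesothelial, progenitor, lymphocyte, TGF-beta and AP-1 lists. Of the 12 endothelial genes, 1 was linked, Cdh5, the cadherin of vessel junctions. Its member M52979 was 16.19, 15.68 and 15.20 in H, 14.81, 14.52 and 15.54 in HH, and in HHC at the floor in 2 libraries and 16.03 in HHC 3. The Cdh5 promoter itself carried a peak in HH 1, CCC 2 and HHC 3 only. Of the matrix genes, Fbln2, an extracellular glycoprotein, had a member, M39365. It was 14.56, 14.64 and 14.57 in HH against 14.01 in both CC_l libraries (difference 0.59 ± 0.17, limma adjusted p = 0.227). A peak too weak to pass the floor lay in 1 of these CC_l libraries. M25667, in Tlr4, the receptor of bacterial lipopolysaccharide and 1 of the inflammatory list, was at most 14.55 in any library and at the floor throughout CCC and HHC. In the cytoskeleton and adhesion list, Itga5, a subunit of the fibronectin receptor, had a member. M89137 near Itga5 was 15.92 in HH 1 but 14.35 and 14.01 in HH 2 and HH 3. HH 1, the library with a peak at every endothelial promoter of the list, was the highest there, and a link between these was not tested.

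Besides Ubd and Ggta1, the 49 promoter members include Bdnf, which encodes a neurotrophin, Cd53, a tetraspanin of blood cells, Oas3, an interferon-induced antiviral enzyme, and Plekha7, an adhesion protein with 2 members. These were named after their values had been seen. At Bdnf the signal was 15.15, 14.45 and 15.16 in HH, with both CC_l libraries at the floor, and all 5 HHC and CCC libraries were at the floor. At Cd53 and Oas3 the long-arm adjusted p was 0.225 and 0.326, and CC_s carried a peak in 1 and 3 of 3 libraries.

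Motifs were searched in the 300 bp window of every region, on both strands. The AP-1 motif TGANTCA was found in 106 members (15.9%), against 10.2% of all regions and 10.6% of regions with a peak in every H library. The C/EBP motif TTGCNNAA was found in 189 (28.3%), against 17.6% and 22.1%. The TEAD motif CATTCCA was found in 69 (10.3%), against 5.71% and 6.06%. Since members are seldom at promoters, the shares were also taken over regions more than 2000 bp from a start site. There they were 16.5% for AP-1, 28.1% for C/EBP and 10.8% for TEAD in the members, and 13.6%, 28.0% and 7.74% in regions with a peak in every H library. The C/EBP share thus stood at the level of other distal regions open in H. In closed-again distal regions the shares were 17.4%, 32.6% and 9.0%, so AP-1 matches were no more frequent in regions that kept a peak than in those that closed.

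The other 7 motifs were rarer, or closer to the level of all regions. The PU.1 motif GAGGAAGT, of a factor of macrophages, was found in 12 members (1.8%), against 2.28% of all regions. The EBF motif CCCNNGGGA was found in 5.09% against 5.84% and the STAT motif TTCNNNGAA in 8.83% against 11.1%. RUNX (TGTGGTT) was found in 7.19% against 6.39%, the glucocorticoid receptor motif ACANNNTGT in 11.4% against 10.6%, the PPAR motif GGTCAAAGG in 7 members (1.05%) against 0.443% and the CRE motif TGACGTCA in 0.599% against 0.545%. Members with an AP-1 match carried a peak in 86.8% of cases in HH and 22.2% in CC_l, and those without in 80.0% and 29.2%. In HHC the shares were 40.3% and 40.6%. For TEAD they were 30.9% with a match and 41.7% without in HHC, and for EBF 57.8% (34 members) and 39.6%, and these gaps were not tested. The GC content of the windows had a median of 46%, against 47% for all regions and 44% for the closed-again regions. Windows masked as repeat over 50% or more of their bases made up 8.83% of the members and 15.9% of all regions.

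**Figure D5:**
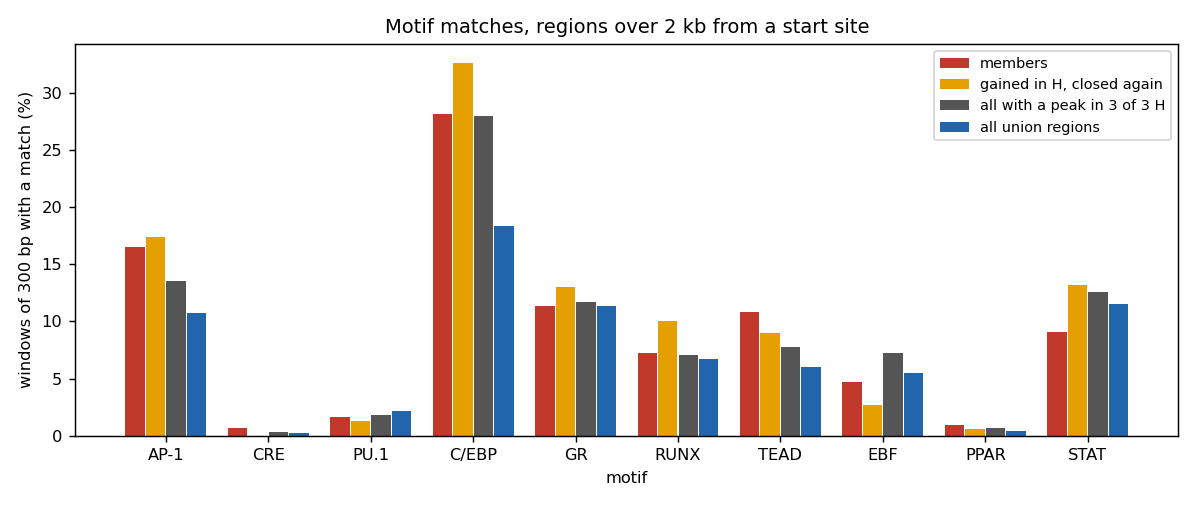
Share of 300 bp windows (%) that hold a match to each of 10 motifs, in regions more than 2 kb from a start site, for the members, the closed-again regions, the regions with a peak in every H library and all regions. The members reach 16.5% for AP-1 and 10.8% for TEAD, above regions with a peak in every H library, and 28.1% for C/EBP, level with them.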

How the data were processed

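ATAC-seq peak lists of 22 libraries in 8 groups were used. According to the submitters' processing notes and the study's methods, reads were trimmed with Trim Galore 0.6.6, aligned with Bowtie2 2.4.4 to mm10 (GRCm38), handled with SAMtools 1.13 and bedtools 2.30, and SEACR 1.3 (stringent, threshold 0.01) called peaks in every library separately. The 2 deposited signal values of a peak are the coverage summed over it (total signal) and its highest coverage (maximum signal), and no normalization of them is stated. Reads are not counted in these lists. The depth of each library is therefore unknown here, and the study states only a minimum number of reads per sample. It is not stated whether peaks on problem regions were removed before deposit.

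Peaks on chromosomes 1 to 19 that overlap by 1 bp or more were merged into 102995 regions. Total signal was rank-mapped as described above to the 29500 regions of the smallest library and tested with limma 3.58.1 (R 4.3.3, lmFit, eBayes with trend) with Benjamini-Hochberg adjustment over all regions tested. Regions above the floor in 2 or more libraries of a pair, or 4 or more of the 10 of the long arm, were tested. The fit was also run on simulated signal with known differences, and the outcome is not reported here. With 2 or 3 libraries per group, p-values rest on few replicates. Genes and start sites are protein-coding entries of the GENCODE vM21 basic annotation, and sequences and repeat masking come from the RefSeq copy of GRCm38.p6. Python 3.11.15 with pandas 2.3.3 and numpy 2.4.6 was used for the rest.

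The members and lists were chosen with earlier results of these data known. Named members are the 8 higher and 3 lower ones with the smallest p in the long arm, the 3 with the smallest p in each pair, the 6 strongest in H, 2 per gene list, the widest and the narrowest, and others are said to be named after their values were seen. Alternatives were stricter calls and rules, the maximum signal, another scaling, other filters, other model settings, a fit with a replicate block, and fits without single libraries. Chromosomes X and Y were not used. Results for some genes are not reported here.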

Additional observations from a re-analysis of the deposited data

How the results depend on the processing

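The number of members and the counts of members higher after high-fat diet depended on how a peak call was defined and on single libraries. Where a call needed peaks over 50% of a region, 266 members were left. Of these, 1 was higher in HH, 0 in HHC and 1 in the long arm together at unadjusted p, and 0 passed the adjusted threshold. Over all regions these counts were 12 of 9856, 1 of 9796, and 9 and 1 of 7461. With the 30000 strongest peaks of each library there were 378 members, and the counts in the same order were 33, 3, 13 and 3. Over all regions they were 254 of 20291, 27 of 19914, and 120 and 31 of 19030. A peak in 3 of 3 HC libraries left 167 members, with 30 higher in HH, 23 in the long arm and 6 at adjusted p, and no peak in CC_s left 268, with 27, 15 and 6.

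Scaling each library to its median in place of the rank mapping gave 168 members in HH, 19 in HHC, 118 in the long arm and 62 at adjusted p. Over all regions it moved the calls of HH from 443 higher and 447 lower to 908 and 599, and those of the long arm from 241 and 420 to 554 and 573. The maximum signal gave 291 and 635 in HH and 171 and 445 in the long arm, with 5 members higher in HHC and 2 at adjusted p. The count of 1 member in HHC against CCC became 2 without a filter, 3 where a region had to pass the floor in every library of a group, 7 without a trend, 3 with the robust fit and 9 with the 4 groups in one fit. Without a filter no member passed the adjusted threshold.

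Deviations from the group mean of libraries with the same replicate number correlated at -0.366 to 0.27, and 2 of 13 pairs exceeded 0.1. In a group of 2 libraries these deviations mirror each other, so the check cannot settle whether libraries are paired. With the number as a replicate block, 27 members were higher in HHC (263 over all regions) and 0 passed the adjusted threshold in the long arm. Over all regions, HH against CC_l then had 111 higher and 62 lower calls at adjusted p, 52 and 19 with the scaling to the median, 40 and 30 with the 4 groups in one fit, and 1 and 2 with the 50% rule, in place of 0.

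Leaving out 1 library at a time gave 191 to 1199 members, with 191 without HC 2, 217 without HC 1 and 1199 without C 3. The counts ranged from 17 to 143 in HH, 1 to 25 in HHC, 23 to 69 in the long arm and 0 to 33 at adjusted p. In alternatives chosen after seeing the data, 53 members passed the adjusted threshold without HH 1 and HHC 3 together (332 higher and 275 lower over all regions), 317 had the HH pattern without HH 1 and 93 the HHC pattern without HHC 3. No member was called lower except in the following. Without CC_l 2, 1 member was lower in HH, and without C 2, which admits other members, 2 were lower in HH and 1 in the long arm, also at adjusted p. The causes of these shifts were not tested. The lists hold peaks and no reads, so a missing peak may be a region just under the threshold of the caller, and depth could not be examined.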
